A study of Mus musculus with 4 samples.

Results

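Leptotene and zygotene spermatocytes were taken from single-cell RNA sequencing of mouse testicular organoids (TOs) and mouse testes. They were chosen by their UMI counts of 7 genes, as the barcodes with at least 2 UMIs of Dmc1 and Meiob together, at least 2 UMIs of Sycp3, at most 1 UMI of the pachytene genes Piwil1, Pou5f2 and Ccna1 together, and at most 1 UMI of Vim, which marks somatic cells. A UMI is a tag that counts 1 captured RNA molecule. Of 41484 barcodes kept after filtering (1000 to 5000 genes, no more than 20000 UMIs, and mitochondrial UMIs of up to 10%), 1149 met the gate, 655 in TOs and 494 in testes. They are called early spermatocytes here. The TO group comprised 2 libraries (TO replicates 1 and 2) of 28-day-old TOs, which had formed by self-assembly of dissociated testis cells of neonatal ICR mice and had been cultured with serum replacement, antioxidants, FSH and testosterone. The testis group comprised 2 libraries (testis replicates 1 and 2) of 28-day-old mouse testes. Neither group carried a transgene or a genetic change, the cells were unsorted, and the dissociation protocol in the labels names day 21 for the TOs, so that the age of the TOs is given in 2 ways. The labels do not tie a library to a batch of TOs or to animals, so that p-values measure the spread between libraries only.

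In the leptotene stage, spermatocytes that have replicated their DNA for the last time begin to condense their chromosomes and cut them. STRA8, which retinoic acid induces, starts this programme together with MEIOSIN. SPO11 makes the breaks at sites that PRDM9 marks, DMC1 coats the broken ends and carries out the search for the homologous chromosome, MEIOB helps in this repair, and SYCP2, SYCP3 and HORMAD1 build the axes along which SYCP1 zips the homologues together in zygotene. In the next stage, pachytene, the X and Y chromosomes are silenced and a large set of genes for later stages is switched on.

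The promoters of Stra8 and of Sycp3, a gene of the gate, are shown for 2 motifs known from germ cells. Among the genes of the meiotic lists below that passed the test, Stra8 had the largest difference. The 250 bases before the start of Stra8 (GRCm38.p6, chr6:34920698-34920947, plus strand, from RefSeq) hold AGGTCA, the core sequence that retinoic acid receptors and other nuclear receptors bind, on either strand (capitals).
Stra8: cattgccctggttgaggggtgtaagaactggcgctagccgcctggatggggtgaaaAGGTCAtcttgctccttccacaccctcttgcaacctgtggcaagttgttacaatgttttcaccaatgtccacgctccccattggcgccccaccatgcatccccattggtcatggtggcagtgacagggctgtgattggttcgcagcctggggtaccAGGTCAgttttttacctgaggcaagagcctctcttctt
The same stretch of Sycp3 (chr10:88459337-88459586, plus strand) holds CACGTG (capitals), the E-box, which proteins such as MAX and MGA bind, and MGA is known to keep meiotic genes silent in other cells.
Sycp3: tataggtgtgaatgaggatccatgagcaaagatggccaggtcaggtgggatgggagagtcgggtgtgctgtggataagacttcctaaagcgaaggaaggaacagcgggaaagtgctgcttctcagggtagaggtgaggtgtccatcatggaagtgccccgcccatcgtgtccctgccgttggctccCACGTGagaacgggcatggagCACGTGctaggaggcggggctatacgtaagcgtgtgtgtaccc
Stra8 had 2 matches, beginning 194 and 38 bases before its start, and Sycp3 had 2 matches, beginning 64 and 43 bases before its start. Sycp3 also held AGGTCA once, not in capitals, 213 bases before its start, and Stra8 held no CACGTG in this stretch. Among all 32851 promoter windows of 300 bases, 16.3% held AGGTCA and 7.15% held CACGTG on either strand, and the motifs do not overlap each other. Of the 55 genes with a window among the meiotic lists used below and the 3 genes that set the lower bounds of the gate, 11 (20%) held CACGTG and 7 (12.7%) held AGGTCA, beside 8.09% and 18.1% of all genes with a window. A match describes the letters only.

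The early spermatocytes came from 4 libraries with 106577822 and 119966959 UMIs in TOs and 77016449 and 74988295 UMIs in testes. TO replicate 1 gave 269 early spermatocytes of 10759 kept barcodes, TO replicate 2 gave 386 of 9463, testis replicate 1 gave 212 of 10804 and testis replicate 2 gave 282 of 10458. Their summed UMIs were 2183244 and 3616353 in TOs and 972187 and 1521856 in testes. Early spermatocytes of the TOs were deeper, with a median of 7702 and 8865 UMIs against 4136 and 4456 in testes, and the groups did not overlap (exact two-sided permutation test, p = 0.33, the smallest that 2 against 2 libraries can give). Mitochondrial RNA took a median of 5.51% and 6.32% of UMIs in TOs against 3.25% and 2.95% in testes, and over all kept barcodes it was also higher in TOs (3.40% and 3.33% against 1.29% and 0.903%). Between any pair of libraries, 30 to 55 barcode sequences were shared, at most 0.44% of the smaller library. Close to the edges of the gate, 75, 63, 92 and 75 early spermatocytes (TO replicates 1 and 2, testis replicates 1 and 2, the order used throughout) had exactly 2 UMIs of Dmc1 and Meiob together, and 132, 78, 128 and 111 barcodes failed only by having 1.

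Genes of leptotene and zygotene that the gate did not use were found more often in early spermatocytes than in somatic barcodes. After each cell had been thinned to 2000 UMIs, a UMI of Hormad1 was found in 57.8% and 61.1% of early spermatocytes in TOs and in 58.9% and 76.4% in testes, against 1.79%, 0.345%, 4.09% and 6.17% of barcodes with at least 5 Vim UMIs, which should lack it. Without thinning the shares were 83.3%, 88.9%, 78.3% and 92.6%. Thinning left out 1, 3, 3 and 6 early spermatocytes. Prdm9 was found in 22.8%, 31.1%, 21.1% and 17.4% of thinned early spermatocytes against at most 0.550% of Vim barcodes, and the germ cell gene Dazl in 95.5%, 99.5%, 85.2% and 97.1%. Hspa2, a pachytene gene, was in 19.0%, 16.2%, 60.3% and 65.9% of thinned cells, against 11.8%, 7.66%, 47.7% and 45.2% of Vim barcodes. Mybl1 was in 11.2%, 15.4%, 15.8% and 24.3%, against at most 3.52%. Pgk2 was in 0.373%, 0.261%, 20.1% and 10.9%, against 0.183%, 0.201%, 13.0% and 13.2%. The label was kept, with the limit that leptotene and zygotene are not told apart by the gate. Vim barcodes do not set these cells apart from pachytene, and whether later cells were among them was not tested.

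RNA of other cells was present in these barcodes in amounts that differed between the groups. The protamine gene Prm1, which spermatids express, stood at 0 and 0.553 CPM (a gene's UMIs scaled to the same total in each library) in early spermatocytes of TOs and at 1175 and 2868 CPM in those of testes. A Prm1 UMI was found in 81.3% and 93.1% of thinned early spermatocytes of testes, close to the 79.8% and 90.5% of testis Vim barcodes. All 20 genes of a spermatid list summed to 93.0, 92.9, 5006 and 10670 CPM, with 10, 7, 0 and 0 of the 20 at 0. Somatic genes went the other way: 12 Sertoli cell markers summed to 967 and 531 CPM in TOs and 350 and 302 CPM in testes (Ctsl most abundant, at 480, 329, 161 and 254 CPM), and 8 stromal and peritubular markers to 627, 189, 128 and 59.1 CPM (Acta2 most abundant). The 6 Leydig cell markers summed to 150, 42.3, 20.6 and 26.3 CPM (Hsd3b1 most abundant), the 7 macrophage markers to 51.8, 41.8, 9.26 and 8.54 CPM (Lyz2 most abundant), and the 4 endothelial markers to at most 9.16 CPM. From 8 spermatid and stromal genes that early spermatocytes should lack, the share of their UMIs that came from other cells was estimated at 14.0% and 3.12% in TOs and 37.2% and 16.7% in testes. In TOs this rested on collagen genes and Dcn, and in testes almost wholly on spermatid genes, so the groups' estimates are not like for like. The profile of other cells was that of all deposited barcodes, early spermatocytes included, not of empty droplets. Because RNA of other cells was present, genes were left out of the calls below where the other kept barcodes of either group held at least 5 times the CPM of early spermatocytes. Most lower genes named are given with their level in the other testis barcodes.

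Early spermatocytes were a few percent of the kept barcodes in both groups, and which group had the higher mean depended on depth. They were 2.50% (exact 95% interval 2.21 to 2.81, counting error only) and 4.08% (3.69 to 4.50) of barcodes in TOs, and 1.96% (1.71 to 2.24) and 2.70% (2.39 to 3.03) in testes. The means were 3.29% ± 1.12 in TOs and 2.33% ± 0.519 in testes (SD, n = 2), and the libraries of the groups overlapped (exact two-sided permutation test, p = 0.67). Among barcodes of at least 3000 UMIs (8935 and 8968 in TOs, 4644 and 5653 in testes) the shares were 2.94% and 4.18% in TOs and 3.32% and 4.60% in testes, so that the order of the means was turned round. With these barcodes also thinned to 3000 UMIs before the gate was applied, the shares were 1.42% and 2.27% in TOs and 2.17% and 3.57% in testes. Without the upper limits on genes and UMIs they were 2.93% and 4.36% in TOs and 1.86% and 2.63% in testes, with no overlap (exact two-sided permutation test, p = 0.33). Of barcodes with at most 1 Vim UMI, early spermatocytes were 4.78% and 12.3% in TOs and 2.32% and 3.02% in testes. Set against the stages next to them, they were 57.0% and 79.4% of the barcodes of TOs that met this gate, a gate for Stra8 without Dmc1 and Meiob, or a pachytene gate, and 21.2% and 28.6% of those of testes (exact two-sided permutation test, p = 0.33). The pachytene gate (at least 3 UMIs of Piwil1, Pou5f2 and Ccna1 together) held only 8 and 14 barcodes in TOs and 695 and 671 in testes.

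**Figure D1:**
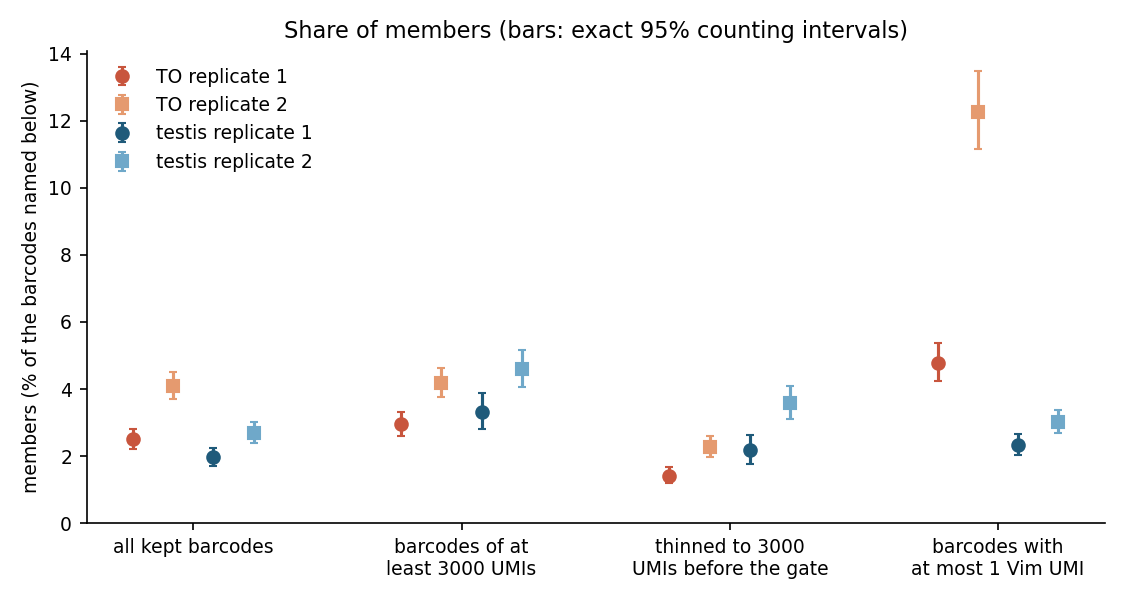
Early spermatocytes ("members") as a percentage of barcodes, by library, for 4 choices of the barcodes counted. Bars are exact 95% counting intervals. The mean was higher in TOs over all kept barcodes and higher in testes among barcodes of at least 3000 UMIs, thinned or not, and in these 3 settings the libraries of the groups overlapped.

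The genes of the gate are given as a description, since the cells were selected on them. Dmc1, the meiotic strand-exchange recombinase, stood at 567 and 675 CPM in TOs and at 569 and 432 CPM in testes. Sycp3, the axis protein, stood at 1558 and 2230 CPM in TOs and at 1242 and 2289 CPM in testes. Meiob, which binds single-stranded DNA with SPATA22, was at 163 and 200 CPM in TOs and at 218 and 379 CPM in testes.

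Across all genes, 99 were higher and 1313 lower in early spermatocytes of TOs than in those of testes, out of 10587 compared, which is 0.935% and 12.4% (edgeR on UMIs summed per library, adjusted p below 0.01 and a log2 fold change beyond 1). The median log2 fold change of all genes was 0.01. Of the 1313 lower genes, 1269 (96.65%) had a higher CPM in the other testis barcodes than in the early spermatocytes, beside 33.3% of all genes compared. Of the 99 higher genes, 49 (49.49%) had a higher CPM in the other TO barcodes, beside 34.8% of all genes compared. After the estimated RNA of other cells had been subtracted no gene was called, with 873 genes at an unadjusted p below 0.05 in edgeR, and 82 of the 99 higher genes kept a log2 fold change beyond 1. Of the 1313 lower genes, 567 still had enough counts to be tested after subtraction, and 350 of these kept a log2 fold change beyond 1. The count of higher genes rested on both TO libraries: 6 were called without TO replicate 1 and 18 without TO replicate 2, while 91 and 90 of the 99 stayed above a log2 fold change of 1. Without testis replicate 1, 453 genes were higher, and without testis replicate 2, 215. DESeq2 called 55 higher and 1079 lower genes.

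Few genes of the meiotic lists differed between the groups, and of these Stra8, which starts the programme, had the smallest adjusted p. Of 69 genes in 4 lists (meiotic entry and cohesin, chromosome axis and synaptonemal complex, break formation, strand exchange and crossover), all were tested, 2 were higher and 2 lower in TOs, or 2.90% each, beside the 0.935% and 12.4% of all genes. Their median log2 fold change was 0.15, beside 0.01 for all genes.

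Stra8 stood at 830 and 896 CPM in early spermatocytes of TOs and at 351 and 180 CPM in those of testes. Both TO libraries were above both testis libraries by more than the libraries of a group differed. The log2 fold change was 1.69 (SE 0.33, adjusted p = 0.0016), and it was 1.27 to 2.23 with 1 library left out, at an adjusted p of 0.024 without TO replicate 1, where the call was lost. After thinning to 2000 UMIs, 69.0% and 75.2% of early spermatocytes in TOs had a Stra8 UMI against 34.4% and 21.4% in testes, and 0.963%, 0.576%, 0.439% and 0% of Vim barcodes. With the RNA of other cells subtracted the log2 fold change was 1.37, at an adjusted p of 0.49. Of the other 11 genes of meiotic entry and cohesin, none passed the test. Dazl, the RNA-binding protein that licenses germ cells for meiosis, was the most abundant, at 2345, 2990, 1260 and 2121 CPM, and the cohesin subunit Smc1b was at 1005, 1344, 893 and 997 CPM.

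The 15 genes of the chromosome axis and synaptonemal complex, apart from Sycp3, held no gene that passed, and their median log2 fold change was 0.01. Sycp1, the central zipper protein, stood at 1135 and 1711 CPM in TOs and at 1023 and 1768 CPM in testes, so that the libraries of one group lay further apart than the groups (log2 fold change 0.01, SE 0.36). Hormad1, which marks axes that have not yet paired, stood at 645 and 667 CPM in TOs and at 514 and 911 CPM in testes, and the groups overlapped. Syce2, of the central element, was at 788, 1113, 875 and 883 CPM.

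Of the 13 genes of break formation, Rec114 was higher and none was lower. Rec114, a partner that activates SPO11, stood at 71.9 and 73.3 CPM in TOs and at 39.1 and 19.7 CPM in testes (log2 fold change 1.33, SE 0.33, adjusted p = 0.0094). The libraries of the groups did not overlap, but the call was lost under 10 of 14 other fits, DESeq2 included (adjusted p = 0.021), and after subtraction of RNA from other cells the log2 fold change was 1.07. Prdm9, which marks the sites of breaks, stood at 152 and 195 CPM in TOs and at 127 and 95.9 CPM in testes, with an adjusted p of 0.096. Spo11 itself was at 40.8, 47.0, 43.2 and 76.2 CPM, with an adjusted p of 0.31. The most abundant genes of the list, the chromatin remodeller Hells (847, 957, 818 and 522 CPM) and the histone reader Zcwpw1 (349, 451, 427 and 218 CPM), did not pass either.

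Among 29 genes of strand exchange and crossover, Psmc3ip and Cntd1 were lower in TOs and none was higher. Psmc3ip, which helps DMC1 in strand invasion, stood at 72.4 and 103 CPM in TOs and at 156 and 210 CPM in testes (log2 fold change -1.08, SE 0.27, adjusted p = 0.0087), and at 240 CPM in the other testis barcodes. Cntd1, which acts in crossover maturation in pachytene, stood at 29.8 and 33.7 CPM in TOs and at 58.6 and 130 CPM in testes (log2 fold change -1.61, SE 0.35, adjusted p = 0.0035), and at 44.0 CPM in the other testis barcodes. Without testis replicate 2 the log2 fold changes of Psmc3ip and Cntd1 were -0.84 and -0.90, and without TO replicate 1 their adjusted p was 0.24 and 0.12. After subtraction the log2 fold changes were -0.54 and -1.62, with neither called. Tex15 and Brca2, the genes of the list with the highest mean CPM, did not pass (1036, 1054, 874 and 618 CPM, and 344, 537, 290 and 255 CPM).

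**Figure D2:**
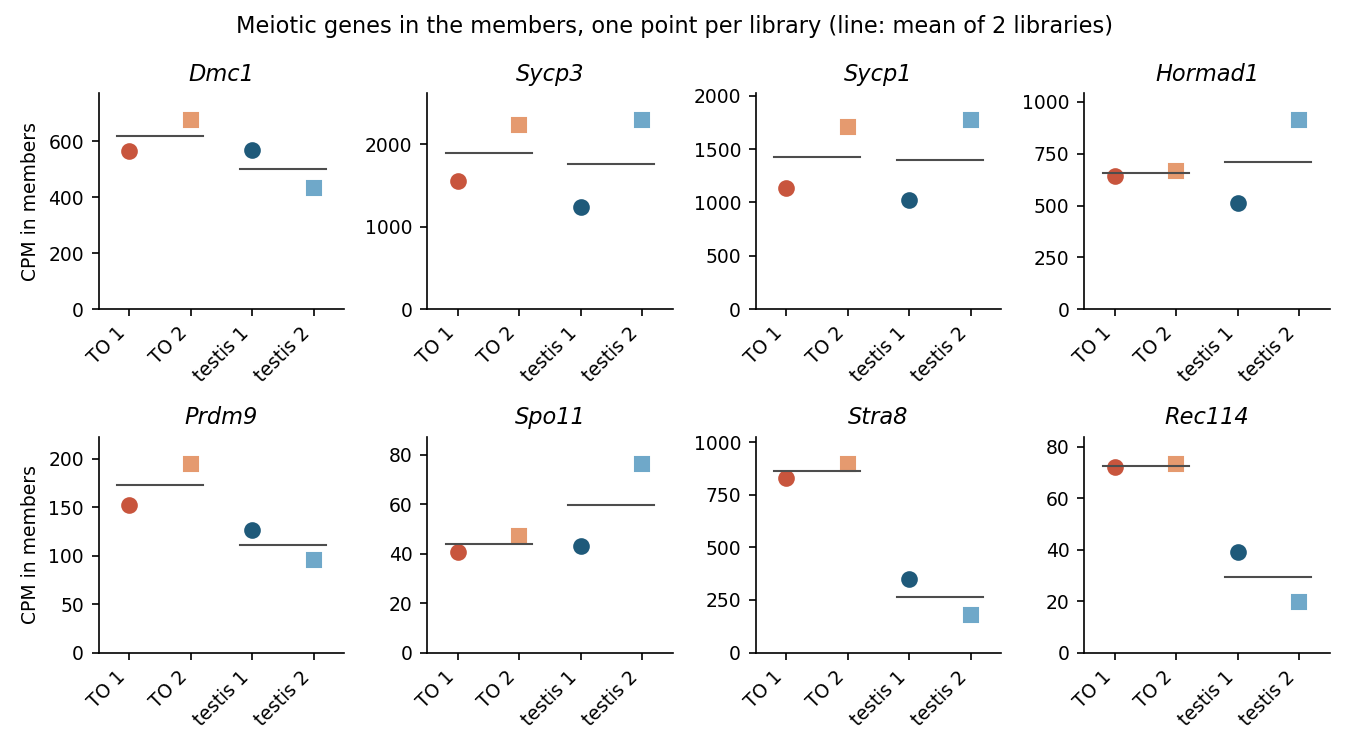
Levels of 8 meiotic genes in early spermatocytes, in CPM on linear axes that start at 0, with 1 point per library and a line at the mean of the 2 libraries of a group ("members" on the axes are the early spermatocytes). Dmc1 and Sycp3 belong to the gate. Stra8 and Rec114 lay higher in both TO libraries, while Sycp1, Hormad1 and Spo11 overlapped between the groups.

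The libraries differed in how far their early spermatocytes had gone, in the same way in both groups. With cells thinned to 2000 UMIs, those with at least 3 Sycp1 UMIs were 38.1% and 56.7% in TOs and 38.8% and 65.9% in testes, so that replicate 2 held the larger share in each group. Against the cells with at most 2 Sycp1 UMIs, the cells with at least 3 had more Spo11 (72.4 against 22.5, 72.9 against 12.3, 71.9 against 29.4 and 97.8 against 40.3 CPM) and less Zbtb16, a gene of undifferentiated spermatogonia (4.99 against 46.4, 4.35 against 37.0, 0 against 20.1 and 0 against 17.5 CPM). Across all genes, 62 were higher and 1105 lower in TOs in cells low in Sycp1 (0.649% and 11.6%), and 98 and 919 in cells high in Sycp1 (1.12% and 10.5%). The classes were not alike between the groups. In cells low in Sycp1, Meiob stood at 74.6, 72.0, 147 and 268 CPM and Mybl1 at 42.0, 37.0, 61.8 and 98.2 CPM. In cells high in Sycp1, Mybl1 stood at 140, 145, 113 and 164 CPM, and the groups overlapped. Stra8 was higher in TOs in both classes, but the split does not hold the stage fixed. In cells low in Sycp1 it stood at 913, 1065, 419 and 251 CPM (log2 fold change 1.49, SE 0.29, adjusted p = 0.0019), and in cells high in Sycp1 at 690, 772, 219 and 139 CPM (log2 fold change 2.09, SE 0.28, adjusted p = 0.00036). In every library it was lower in the cells high in Sycp1. Rec114 had a log2 fold change of 0.92 (adjusted p = 0.040) in cells low in Sycp1 and of 2.37 (adjusted p = 0.0014) in cells high in Sycp1; the difference between the classes was not tested.

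Uchl1 and Crabp1, genes of spermatogonia, were higher in TOs. Of 14 spermatogonial genes compared, 2 were higher and 1 was lower (14.3% and 7.14%, beside 0.935% and 12.4% of all genes), and the median log2 fold change of the 15 tested was 0.76, beside 0.01 for all genes. Uchl1, a ubiquitin hydrolase abundant in spermatogonia, stood at 267 and 208 CPM in TOs and at 98.8 and 90.0 CPM in testes (log2 fold change 1.30, SE 0.23, adjusted p = 0.00085). Crabp1, which binds retinoic acid in the cytoplasm, stood at 140 and 90.7 CPM in TOs and at 51.4 and 29.6 CPM in testes (log2 fold change 1.50, SE 0.32, adjusted p = 0.0030). For both, each TO library lay above each testis library. Without TO replicate 1 their adjusted p rose to 0.058 and 0.12. Kit stood at 59.5, 53.1, 53.5 and 34.2 CPM and Zbtb16 at 31.2, 18.3, 13.4 and 6.57 CPM, and neither passed. Dmrtb1, a regulator of the switch from mitosis to meiosis that was also read in later testis cells (415 CPM in the other testis barcodes), was lower, at 33.4 and 21.6 CPM in TOs against 205 and 143 CPM in testes. Its log2 fold change of -2.70 became -0.64 after subtraction and was not called.

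To see whether these genes already differed in barcodes without Dmc1 and Meiob, early spermatocytes were set against barcodes with at least 2 Stra8 UMIs, no Dmc1 or Meiob UMI and the same upper bounds, 195 and 86 in TOs and 91 and 32 in testes. This comparison was added after the data had been seen, because a gate with Kit, Stra8 and Dmrtb1 took barcodes rich in spermatid RNA in testes (Prm1 at 4589 and 23583 CPM). In these Stra8 barcodes Uchl1 stood at 601 and 668 CPM in TOs and at 677 and 579 CPM in testes, and the groups overlapped. From there to the early spermatocytes, Uchl1 fell 2.25-fold and 3.22-fold in TOs and 6.85-fold and 6.43-fold in testes. The interaction in edgeR, that is the TO effect in early spermatocytes minus that in Stra8 barcodes, was 1.41 on the log2 scale (SE 0.24, adjusted p = 1.1e-05). Crabp1 fell 1.96-fold and 2.95-fold in TOs and 5.16-fold and 11.5-fold in testes (interaction 1.74, SE 0.30, adjusted p = 1.1e-05). In the Stra8 barcodes themselves, 15 genes were higher and 643 lower in TOs (0.175% and 7.48% of 8592), and 2 and 594 of these were also called in early spermatocytes. For the interaction across all genes, 36 had a positive and 3 a negative interaction (0.335% and 0.0279% of 10761), and 9 of the 36 were also higher, and all 3 also lower, in early spermatocytes of TOs. The 9 were Uchl1, Crabp1, Bex1, Nit2, Fmnl2, Tslrn1, the glutathione reductase Gsr, the pentose phosphate enzyme Taldo1 and the ferritin light chain Ftl1. Gsr stood at 137 and 113 CPM in early spermatocytes of TOs and at 47.3 and 35.5 CPM in those of testes, and it fell 2.32-fold, 3.85-fold, 5.37-fold and 10.7-fold from the Stra8 barcodes. Bex1 was at 88.9, 77.2, 23.7 and 24.3 CPM in early spermatocytes and fell 1.01-fold, 1.66-fold, 4.19-fold and 4.20-fold. The number of interactions rested on single libraries: it was 6 without TO replicate 1, 4 without TO replicate 2, 47 without testis replicate 1 and 11 without testis replicate 2, which had only 32 Stra8 barcodes. Stra8 set the comparison gate and was not counted. Its level in Stra8 barcodes was 793, 658, 749 and 590 CPM. Early spermatocytes were not selected on Stra8 and differed in it, so the gate can shift the interaction of any gene that varies with Stra8. The cutoff in UMIs was also harder to meet in testes, where Stra8 barcodes had a median of 5665 and 5104 UMIs against 8110 and 9112 in TOs. The interactions are therefore given as a description.

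**Figure D3:**
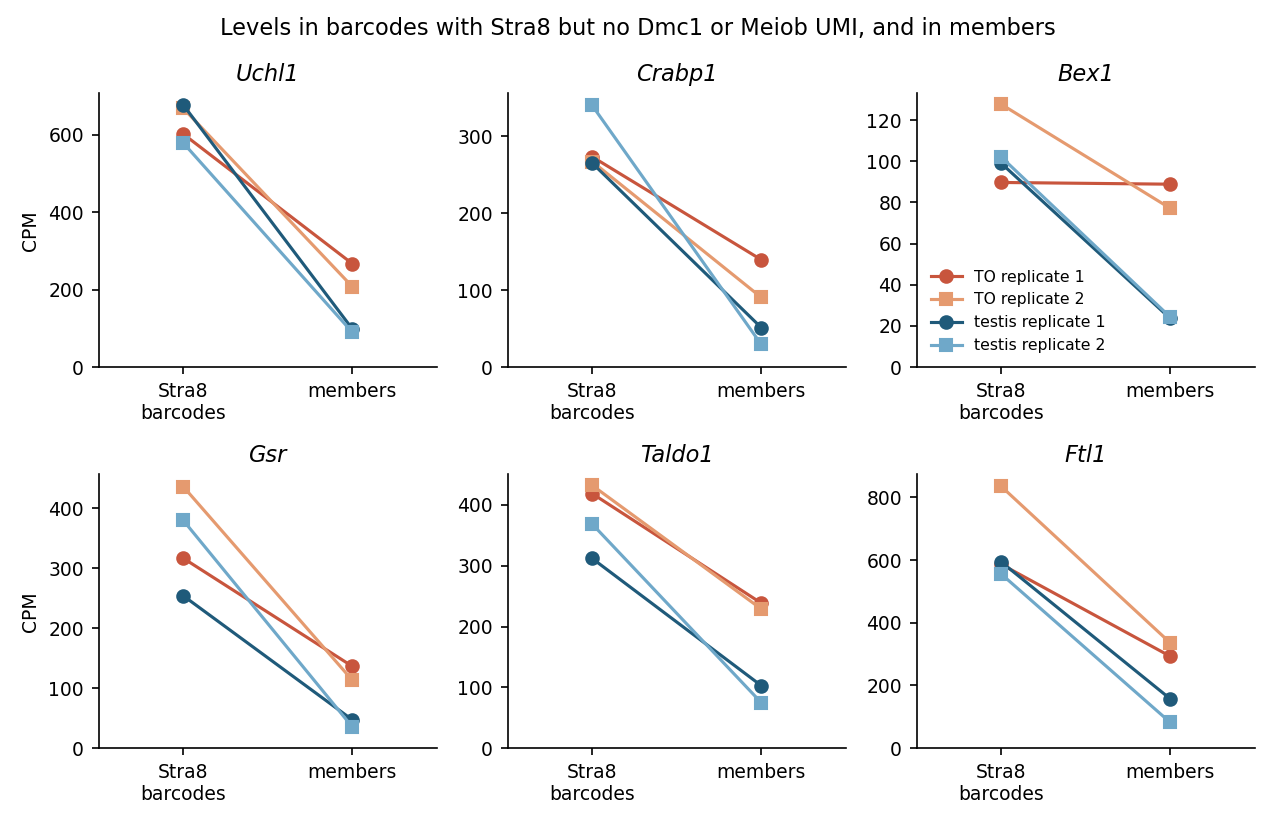
CPM of 6 genes in barcodes with Stra8 but no Dmc1 or Meiob UMI (left points) and in early spermatocytes (right points, "members"), with 1 line per library. The genes were taken from the 9 with a positive interaction that were also higher in early spermatocytes of TOs, and in each the testis libraries ended below the TO libraries.

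X-linked RNA took a larger share of UMIs in both TO libraries than in both testis libraries. X-linked genes took 2.66% and 2.61% of UMIs in TOs and 2.11% and 1.71% in testes, with no overlap (mean 2.64% ± 0.0337 against 1.91% ± 0.277, SD, n = 2; exact two-sided permutation test, p = 0.33). In the Stra8 barcodes the shares were 2.34%, 2.14%, 1.97% and 1.97%, and in the barcodes of the pachytene gate they were 1.05%, 0.690%, 0.697% and 0.520%. Between cells low and cells high in Sycp1 the X-linked share went up in both TO libraries (2.62% to 2.74% and 2.54% to 2.67%) and down in both testis libraries (2.16% to 1.99% and 1.84% to 1.64%; exact two-sided permutation test of the change, p = 0.33). Other cells differed in the same direction: barcodes with at least 5 Vim UMIs had 3.97% and 3.96% X-linked UMIs in TOs against 3.16% and 3.48% in testes. The means of these barcodes were 0.65 percentage points apart, beside 0.73 in early spermatocytes. Over all barcodes the shares were 3.53% and 3.64% in TOs and 1.58% and 1.27% in testes. With the RNA of other cells subtracted the shares in early spermatocytes were 2.54%, 2.58%, 2.46% and 1.82%, still without overlap, and the difference was 0.42 percentage points.

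Gene by gene, 21 of 378 X-linked genes were higher in TOs (5.56%) beside 77 of 10182 autosomal genes (0.756%), 19 X-linked genes were lower (5.03%) beside 1291 autosomal genes (12.7%), and the median log2 fold change was 0.52 for X-linked and -0.01 for autosomal genes. X-linked genes were 21.2% of all higher genes and 3.57% of the genes compared. Under the scaling of DESeq2 the medians were 0.44 and -0.08. Fthl17c, of a ferritin-like family whose reads can be split between near-identical copies, stood at 71.0 and 104 CPM in TOs and at 18.5 and 23.0 CPM in testes (log2 fold change 2.05, SE 0.32, adjusted p = 0.00035). Gm10439 stood at 60.9, 77.2, 18.5 and 18.4 CPM, Mageb4 at 174, 166, 62.8 and 67.0 CPM and Trap1a at 272, 277, 111 and 114 CPM. All 4 of Bex1, Bex2, Bex3 and Bex4 were higher, with log2 fold changes of 1.76, 1.21, 1.25 and 1.22. Mageb4, Trap1a, Bex2, Bex3 and Bex4 were named after their values had been seen, and reads of the Mage and Bex families can also be split between like copies. In the Stra8 barcodes, 2 of 284 X-linked genes were higher (0.704%) beside 13 of 8287 autosomal genes (0.157%), with medians of 0.15 and -0.01.

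**Figure D4:**
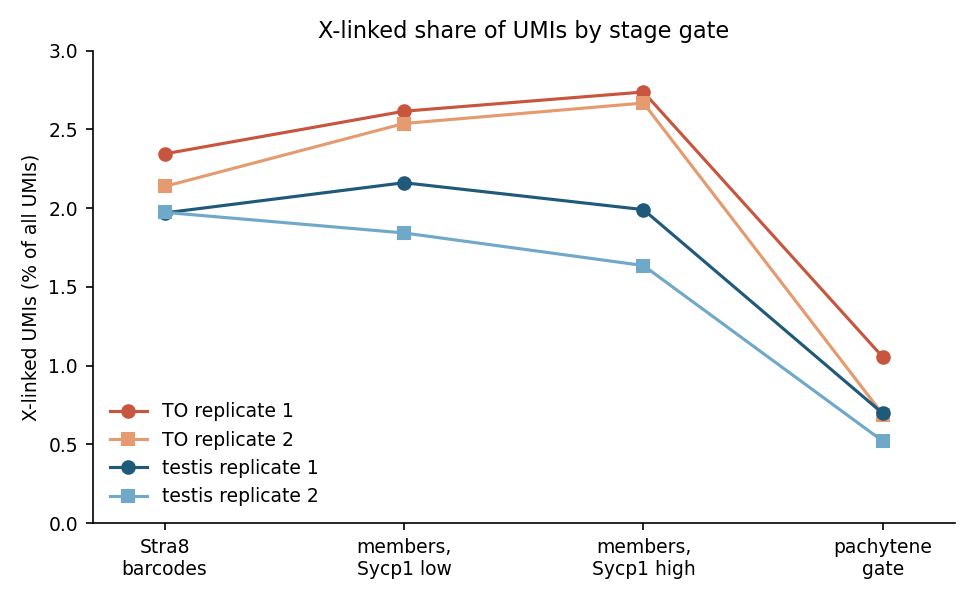
X-linked UMIs as a percentage of all UMIs in barcodes of 4 stage gates, with 1 line per library. The TO libraries rose to the early spermatocytes high in Sycp1 (2.74% and 2.67%), where the testis libraries were at 1.99% and 1.64%, and all were low in the pachytene gate, which held 8 and 14 barcodes in TOs.

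Genes of later stages were lower in TOs, and here the RNA of other cells bears on every value. Of 22 genes of pachytene and later spermatocytes compared, 17 were lower (77.3%, beside 12.4% of all genes) and none was higher. The median log2 fold change was -2.19 over the 23 tested. Genes such as Adam3 (2.75 and 2.77 CPM in TOs) passed the filter on low counts only through the testis libraries. They had to be lower in TOs, so that this count and this median are given as a description only. Ldhc, the lactate dehydrogenase of germ cells, stood at 68.3 and 35.7 CPM in TOs and at 1560 and 1158 CPM in testes, and at 3708 CPM in the other testis barcodes. Meig1, which acts in sperm tail assembly, stood at 50.4 and 71.3 CPM in TOs and at 1361 and 1376 CPM in testes, and at 4048 CPM in the other testis barcodes. Spink2 and Adam3 had log2 fold changes of -4.85 and -5.55 and were likewise higher in the other testis barcodes (1519 and 428 CPM). The most abundant genes of the list, Tex101 (880, 764, 1346 and 1218 CPM) and Ybx1 (670, 703, 866 and 1405 CPM), did not pass. With the RNA of other cells subtracted the list had a median of -0.81 over 18 genes and no call, while Ldhc, Meig1 and Spink2 had log2 fold changes of -3.01, -2.99 and -1.72. Of the spermatid list, 9 of 20 genes were compared. Odf2, of this list, had counts of its own in TOs (70.5 and 60.6 CPM against 515 and 564 CPM in testes, log2 fold change -3.07). Genes with very few UMIs in TOs, such as Prm3 and Odf1, passed the filter on low counts only through the testis libraries. They had to be lower in TOs, so that the count of calls and the median say nothing further. The same holds for the 8 lower genes with the largest fold, which are given as a description only. H1fnt, a linker histone of spermatids, had 0 UMIs in early spermatocytes of TOs against 59 and 162 in those of testes, and Prm3, Scp2d1, 1700013G24Rik, Llcfc1, Spata20, Hils1 and Tmco2 had 1 to 3 UMIs there. In the other testis barcodes H1fnt stood at 423 CPM, Prm3 at 774 CPM and Hils1 at 649 CPM, and each of the 8 was higher there than in early spermatocytes of testes.

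For 44 of the 1313 lower genes the CPM in the other testis barcodes was not higher than in early spermatocytes of testes, and the genes named from them were chosen after their values had been seen. They included Hsf5 and Kctd19, which act in pachytene progression, and Psma8, a proteasome subunit of spermatocytes. Hsf5 stood at 27.5 and 32.6 CPM in TOs and at 67.9 and 135 CPM in testes (log2 fold change -1.79, SE 0.33, adjusted p = 0.0011), and Kctd19 at 16.0, 15.5, 36.0 and 118 CPM (log2 fold change -2.35, SE 0.45, adjusted p = 0.0014). Psma8 stood at 39.4, 28.5, 55.5 and 135 CPM. In all 3, testis replicate 2, whose early spermatocytes were more often high in Sycp1, was the highest library. Without it the log2 fold changes were -1.19 for Hsf5, -1.22 for Kctd19 and -0.76 for Psma8. Without TO replicate 1 they were -1.66, -2.35 and -1.77, and without TO replicate 2 they were -2.01, -2.40 and -1.41. For none of the 3 was the call kept in all of these fits. With the RNA of other cells subtracted none of the 3 was called (log2 fold changes -1.70, -2.03 and -1.33; adjusted p = 0.48, 0.62 and 0.63).

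**Figure D5:**
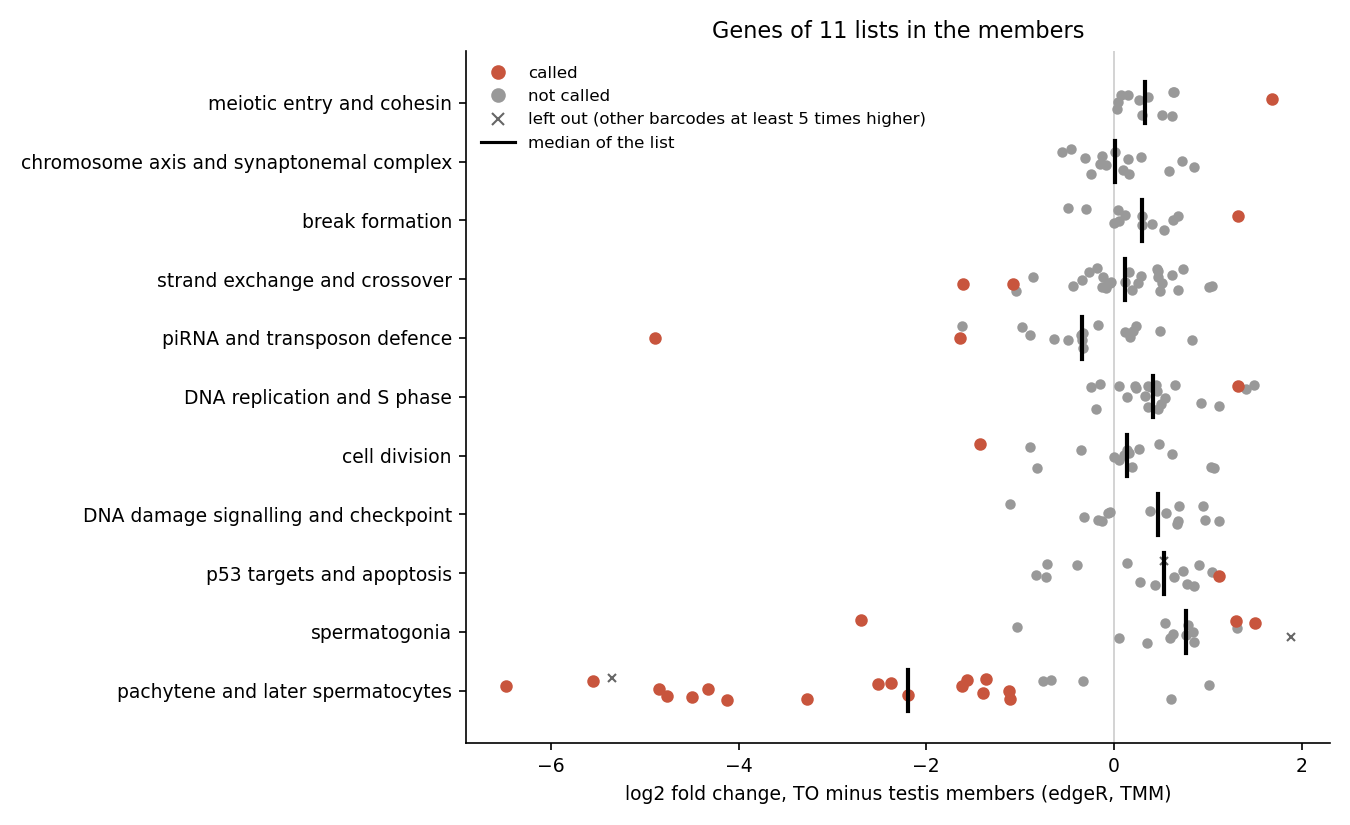
Log2 fold changes (TO minus testis) in early spermatocytes ("members") for genes of 11 lists, with 1 point per gene. Filled red points passed the test, grey points did not, crosses were left out because other barcodes held at least 5 times as much, and black lines are list medians, from 0.76 for spermatogonia to -2.19 for pachytene and later spermatocytes.

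Of 18 genes of the piRNA pathway, which guards the germline against transposons, 2 were lower (11.1%, beside 12.4% of all genes) and none was higher. Tdrd6, a scaffold of germ granules, stood at 1.83 and 2.21 CPM in TOs and at 62.8 and 61.1 CPM in testes. With 4 and 8 UMIs in TOs, it passed the filter on low counts only through the testis libraries, so that it had to be lower. Gtsf1, which piRNA-guided silencing needs, stood at 184, 186, 552 and 585 CPM. The levels of Tdrd6 and Gtsf1 in the other testis barcodes were 105 and 1292 CPM. After subtraction their log2 fold changes were -4.37 and -0.28, with neither called. Fkbp6 (617, 623, 453 and 416 CPM) and Rnf17 (482, 569, 421 and 532 CPM) did not pass.

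Among lists of proliferation, stress and retinoic acid genes, 1 or 2 genes of a list were called, or none. The counts stand beside 0.935% higher and 12.4% lower over all genes, and with 7 to 22 genes in a list 1 call is 4.55% to 14.3% of it. Of 22 genes of DNA replication, Mcm2, of the replicative helicase, was higher (90.7 and 84.3 CPM against 47.3 and 23.7 CPM, log2 fold change 1.32, adjusted p = 0.0083), and of 15 genes of cell division the kinase Aurka was lower (35.3 and 23.8 CPM against 58.6 and 94.0 CPM, log2 fold change -1.43, adjusted p = 0.0038, 111 CPM in the other testis barcodes). Top2a (710, 795, 741 and 589 CPM) and Cenpf (547, 543, 531 and 500 CPM) did not pass. None of 14 genes of DNA damage signalling passed, with Atr at 432, 539, 461 and 581 CPM and Topbp1 at 202, 201, 194 and 220 CPM. Of 14 p53 targets and apoptosis genes compared, Trp53inp1 was higher (87.9 and 71.9 CPM against 33.9 and 37.5 CPM, log2 fold change 1.12, adjusted p = 0.0076), while Bax (226, 181, 120 and 118 CPM) and Mdm2 (96.2, 91.8, 140 and 165 CPM) did not pass. Of 10 immediate-early and heat shock genes compared, Dnajb1 and Ddit3 were lower, with log2 fold changes of -1.11 and -1.73, and the chaperones Hsp90aa1 and Hspa5 did not pass. Dnajb1 and Ddit3 stood at 268 and 86.8 CPM in the other testis barcodes, their log2 fold changes became -0.43 and -0.98 after subtraction, and without TO replicate 1 their adjusted p was 0.15 and 0.051. The calls of Mcm2, Aurka and Trp53inp1 were also lost without either TO replicate. Of 10 genes of hypoxia and glycolysis compared, Hk1 and Slc2a3 were lower, at log2 fold changes of -3.23 and -3.24, and both were higher in the other testis barcodes (331 and 165 CPM). After subtraction they were at -1.96 and -2.70, with neither called. Of 10 oxidative stress genes compared, Gpx4 was lower, at 134 and 107 CPM against 539 and 408 CPM, and it stood at 1613 CPM in the other testis barcodes. Its log2 fold change of -2.00 became 0.19 after subtraction. Of 7 retinoic acid genes compared, Crabp1 was higher and the retinol dehydrogenase Rdh11 lower (65.9 CPM in the other testis barcodes), and Aldh1a2, which makes retinoic acid, was at 90.2, 89.9, 106 and 92.0 CPM.

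The 8 higher genes with the largest fold among those of at least 50 CPM were Cnn3, B2m, Fthl17c, Asah1, Gm10439, Psme2, Dnd1 and Bex1. B2m, the light chain of MHC class I, stood at 61.4 and 70.8 CPM in TOs and at 13.4 and 13.1 CPM in testes (log2 fold change 2.30, SE 0.33, adjusted p = 0.00015), and Psme2, a subunit of the proteasome activator, at 54.1, 48.7, 13.4 and 15.1 CPM. Cnn3, a calponin, and Asah1, a lysosomal ceramidase, had log2 fold changes of 2.30 and 1.97. These 4 genes stood at 296, 115, 188 and 155 CPM in the other barcodes of TOs, above their level in early spermatocytes, and after subtraction their log2 fold changes were 3.87, 2.20, 2.44 and 2.03, with none called. Dnd1, an RNA-binding protein of germ cells, stood at 58.6 and 58.1 CPM in TOs and at 18.5 and 15.1 CPM in testes (log2 fold change 1.78, SE 0.32, adjusted p = 0.00083), and at 20.6 CPM in the other barcodes of TOs. Of 13 genes of the mitochondrial genome, mt-Nd2 was higher (7.69%, beside 0.935% of all genes) and none was lower, and their median log2 fold change was 0.92, beside 0.01 for all genes. The median mitochondrial share was also higher over all kept barcodes of TOs, as given above.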

How the data were processed

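Single-cell RNA sequencing (10x Chromium 3′) of 2 TO and 2 testis libraries was used. The authors deposited a table of raw UMI counts for each library, made with Cell Ranger 7.1.0 on mm10 according to the submitters' processing notes; the study's later removal of doublets and integration are not in these counts. Filtering by gene number (1000 to 5000), total UMIs (up to 20000) and mitochondrial percentage (up to 10%) left 41484 of 51139 barcodes. No doublets were removed; their removal was an alternative. The members, gene lists and tests were chosen with earlier results of these data known. The gate took a marker rule, not the study's clusters, so cells can differ from those the study named.

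UMIs were summed over the early spermatocytes of each library and compared with edgeR 4.0.16 (R 4.3.3; TMM, filterByExpr, quasi-likelihood F test, Benjamini-Hochberg over 11779 genes), and a gene was called where its adjusted p was under 0.01 and its log2 fold change exceeded 1 in size. The 7 gate genes were not counted, and 1192 genes were left out because the other kept barcodes of a group held at least 5 times their CPM. CPM are UMIs scaled to the same total for the early spermatocytes of each library, and 3′ counts do not compare levels between genes. The interaction model held library as a block. Single values per library were compared with exact permutation tests, whose smallest p with 2 against 2 libraries is 0.33. Intervals are exact (Clopper-Pearson, 95%, scipy 1.17.1) and cover counting error only.

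Named genes were the gate genes, up to 8 called genes in each direction with the largest fold among those of at least 50 CPM, in each list up to 4 called genes and the 2 with the highest mean CPM, and stage references, of which 1 is not reported here; others are said to have been chosen after their values were seen. On simulated counts at these depths (11364 genes) edgeR recovered 99% of 100 genes changed by a log2 fold of 2 and called 2 unchanged genes. The simulation set a fixed spread between libraries that was not estimated from these data, changed only genes above a floor in CPM, and held no RNA of other cells. It checks the code and does not give the power or error rate in these data. Alternatives were DESeq2 1.42.0, no filter on low counts, a replicate block, doublets removed, at least 3000 UMIs, a stricter gate, subtraction of RNA from other cells, thinned sums, each library left out, and, added after the data were seen, cells low or high in Sycp1. Of 32285 gene identifiers, 32235 were found in the GENCODE vM21 annotation, which placed 1084 on the X chromosome.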

Additional observations from a re-analysis of the deposited data

Results flagged for a closer look

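For 12 genes the difference between TOs and testes in early spermatocytes was unlike that in the Stra8 barcodes, by the interaction test in edgeR (adjusted p below 0.01), and the gene was also called in early spermatocytes in the same direction. On the log2 scale the interaction was 1.80 for Bex1, 1.74 for Crabp1, 1.88 for Fmnl2, 1.23 for Ftl1, 1.43 for Gsr, 1.60 for Nit2, 1.15 for Taldo1, 2.43 for Tslrn1 and 1.40 for Uchl1. It was -2.47 for Chn2, -2.93 for Efcab10 and -1.26 for Map1lc3a. These values are a description, since selection on Stra8 in only 1 of the 2 sets of barcodes can shift them. Fmnl2 and Tslrn1 differed from the others in that they stood higher in early spermatocytes of TOs (128 and 134 CPM, and 108 and 145 CPM) than in Stra8 barcodes of TOs (78.1 and 33.3 CPM, and 25.8 and 18.6 CPM).

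The X-linked share of UMIs in cells high in Sycp1 minus that in cells low in Sycp1 was positive in TOs (0.122 percentage points in replicate 1, 0.13 in replicate 2) and negative in testes (-0.171 in replicate 1, -0.207 in replicate 2), so that the groups moved in opposite directions (exact two-sided permutation test, p = 0.33, the smallest that this design can give).

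Among barcodes above the upper limits on genes or UMIs, which were used only where those limits were dropped, 83 of 1242 in TO replicate 1 (6.68%, exact 95% interval 5.36 to 8.22), 92 of 1490 in TO replicate 2 (6.17%, 5.01 to 7.52), 7 of 997 in testis replicate 1 (0.702%, 0.283 to 1.44) and 10 of 665 in testis replicate 2 (1.50%, 0.723 to 2.75) met the gate for early spermatocytes. Whether these were deep cells or doublets was not tested.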

How the results depend on the processing

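The number of genes higher in early spermatocytes of TOs, 99, was 55 with DESeq2, 262 with no filter on low counts, 41 with thinned sums, 62 in cells low in Sycp1, 174 with no genes left out, 0 after subtraction of RNA from other cells, and 6 to 453 with 1 library left out. The number of lower genes, 1313, was 0 after subtraction, 245 with genes left out from 2 times, and 663 to 1441 with 1 library left out. With the replicate block 215 genes were higher and 1500 lower; same-numbered libraries deviated together with r = 0.147 across genes, but with only 2 pairs they share no more than a number. The interaction with the planned spermatogonia gate had 3510 calls, 1844 to 3515 with 1 library left out, and 39 with the Stra8 barcodes, a gate chosen after the data were seen. The difference in the share of early spermatocytes, 0.960 percentage points, turned to -0.395 among barcodes of at least 3000 UMIs and to -1.03 after these were also thinned to 3000. Of 1186 values of 86 named genes under the alternatives, 1015 kept their direction and their side of the threshold, 122 lost the call, 5 gained it and 44, in 17 genes, changed sign. Only 1 of the 44 was of a called gene, Gpx4, at 0.19 after subtraction; the others were of genes not called. On the log2 scale, Sycp1 was -0.20, Zcwpw1 -0.022, Rnf17 -0.0196, Top2a -0.10, Cenpf -0.14, Sod2 0.027 and Kit -0.0024 after subtraction. Smc1b was -0.081, Sycp1 -0.082, Syce2 -0.13, Zcwpw1 -0.044, Top2a -0.37, Cenpf -0.12 and Sod2 0.0698 in cells low in Sycp1. Atr was 0.16, Topbp1 0.016, Aldh1a2 0.065, Hormad1 0.17 and Mybl1 0.023 in cells high in Sycp1. Topbp1 was 0.018 and Sod2 0.053 with no filter on low counts. Sycp1 was -0.013 with doublets removed. Sycp1 was -0.046 with thinned sums. Cenpf was -0.054 with the stricter gate. With 1 library left out, the ranges of the fold changes that changed sign were -0.016 to 0.51 for Smc1b, -0.41 to 0.46 for Sycp1, -0.26 to 0.34 for Syce2, -0.12 to 0.85 for Zcwpw1, -0.0903 to 0.29 for Rnf17, -0.0047 to 0.32 for Top2a, -0.016 to 0.0898 for Cenpf, -0.38 to 0.051 for Atr, -0.16 to 0.021 for Topbp1, -0.48 to 0.086 for Hspa5, -0.23 to 0.10 for Sod2, -0.82 to 0.0045 for Spo11, -0.51 to 0.32 for Hormad1 and -0.67 to 0.16 for Mybl1. The causes were not tested. Subtraction rested on 8 genes, in effect on stromal genes in TOs and on spermatid genes in testes. The 2 libraries per group and the lower depth of testis cells limit every comparison.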
